A study of Mus musculus with 6 samples.

Results

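The genes described here are 8 genes of retinoid (vitamin A) storage and retinoic acid metabolism, taken by symbol from a table of 34745 genes. They are Lrat, Aldh1a1, Aldh1a2, Aldh1a3, Cyp26a1, Cyp26b1, Rarb and Stra6, each present as a row of the table, and 7 of the 8 had enough counts to be tested. RNA was sequenced from mouse liver cells labelled LSECs, liver sinusoidal endothelial cells, which line the blood spaces of the liver. The first group came from Tgfbr2f/f mice (f/f; loxP-flanked Tgfbr2, titled WT), and the second from littermates labelled Tgfbr2 ECKO, an endothelial knockout of the type II TGF-beta receptor gene. Mice of both groups had received the hepatotoxin carbon tetrachloride (CCl4) by intraperitoneal injection, 2 injections per week for 6 weeks, and no untreated group was analysed here. Each group had 3 libraries; whether every library stems from its own mouse is not in the labels, so p-values reflect the spread among these libraries, which may be technical. The sources used here do not give the Cre driver, the age of the mice or the way the cells were isolated.

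In the liver, stellate cells lying beside the sinusoids take up retinol and store it as retinyl esters, which are made by lecithin retinol acyltransferase, the product of Lrat. Retinol is oxidised to retinaldehyde and then, by the Aldh1a retinaldehyde dehydrogenases, to retinoic acid, a ligand of nuclear receptors that act on response elements in target genes. Enzymes of the Cyp26 family break retinoic acid down, and Cyp26a1 and Rarb are themselves classical retinoic acid target genes.

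Totals ranged from 17171850 to 25062755 counts per library, and a count of 0 allows up to 3 counts, or 0.124 to 0.200 CPM, for counting error only. Transcripts of the mitochondrial genome took 11.5% to 23.5% of counts in the f/f libraries and 19.7% to 32.4% in the ECKO-labelled libraries. Tgfbr2 was at 387, 442 and 452 CPM in the f/f libraries and at 497, 487 and 511 CPM in the ECKO-labelled libraries, so the gene total was not lower there, and counts over a whole gene cannot check a deleted exon. All 10 markers of sinusoidal endothelium were detected, with a summed level of 19267 to 22547 CPM in the f/f libraries and 20930 to 24679 CPM in the ECKO-labelled libraries. Markers of other liver cells were present too: the summed level of 15 stellate cell markers was 1657 to 1850 CPM in the f/f libraries and 870 to 1286 CPM in the ECKO-labelled libraries, that of 12 hepatocyte markers 979 to 1785 and 999 to 1919 CPM, and that of 8 mesothelial markers 55.3 to 113 and 30.9 to 75.8 CPM. CPM values (counts relative to library size) are scaled by TMM, which evens out differences in composition between libraries, and a change was called at an adjusted p under 0.05 in edgeR's quasi-likelihood test over the 13692 genes kept.

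Of the 7 retinoid genes tested, 2 fell in the ECKO-labelled libraries, none rose and 5 did not pass. Both that fell, Aldh1a2 and Aldh1a1, encode retinaldehyde dehydrogenases. Among all genes tested, 2.79% were called lower and 1.24% called higher. In 4 of the 7 (Aldh1a1, Aldh1a2, Cyp26a1 and Cyp26b1) the libraries of the groups did not overlap, which was so for 30.9% of all genes tested in either direction. The median log2 fold change of the 7 was -0.17, against 0.01 over all genes tested. The number called moved with single libraries: 3 passed when f/f replicate 1 was left out, 1 when f/f replicate 2 was, and 0 when f/f replicate 3 was or any one of the ECKO-labelled libraries.

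**Figure D1:**
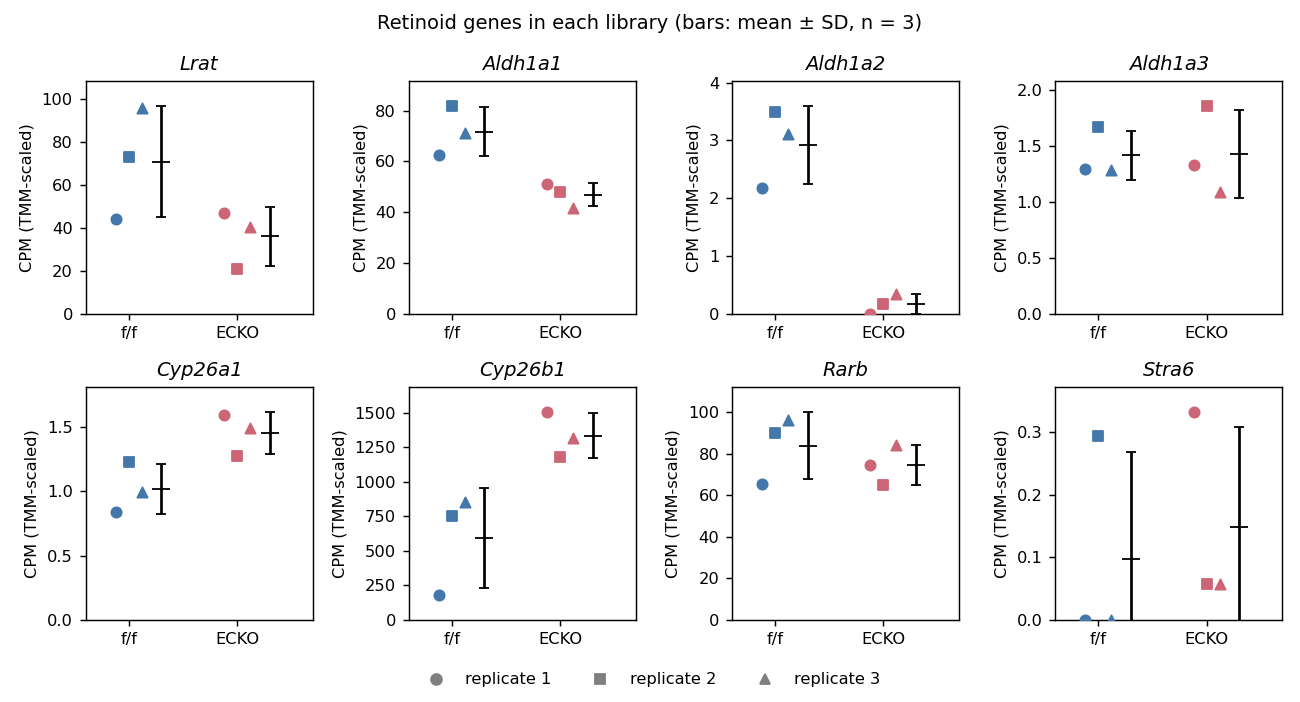
Level of each retinoid gene in CPM (TMM-scaled, linear axes from 0, each with its own scale) in the 3 f/f libraries and the 3 labelled ECKO; each symbol is 1 library and the bars show mean ± SD (n = 3), ending at 0 where the SD exceeds the mean. Aldh1a1 and Aldh1a2 are higher in every f/f library, Cyp26a1 and Cyp26b1 lower in every f/f library, and f/f replicate 1 lies far below the other f/f libraries for Cyp26b1.

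Storage was represented by Lrat (ENSMUSG00000028003, chr3:82892579-82903973, minus strand, on mm10/GRCm38). Lrat was at 44.0, 72.8 and 95.7 CPM in f/f replicates 1, 2 and 3 and at 46.8, 20.7 and 40.3 CPM in the ECKO-labelled libraries. The groups overlapped, since f/f replicate 1 lay below replicate 1 of the ECKO-labelled libraries, while the other f/f libraries lay above all of them. Its mean was 70.8 ± 25.9 CPM in the f/f libraries and 35.9 ± 13.6 CPM in the ECKO-labelled libraries (mean ± SD over 3 libraries per group), with a log2 fold change of -0.98 (SE 0.38) that did not pass (edgeR adjusted p = 0.183). Counts in bulk RNA cannot tell fewer cells of a type from less RNA per cell. DESeq2 called the same difference (log2 fold change -0.99, adjusted p = 0.0394).

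Because Lrat is known in the liver chiefly from stellate cells, its counts were also set against those of the 15 stellate cell markers. Lrat amounted to 2.66%, 4.10% and 5.17% of the summed marker counts in f/f, and to 3.94%, 2.38% and 3.13% in the ECKO-labelled libraries. These shares overlapped, f/f replicate 1 having a lower share than replicates 1 and 3 of the other group. On the log2 scale the ratio was -4.71 ± 0.487 in the f/f libraries and -5.02 ± 0.365 in the ECKO-labelled libraries, a difference of -0.31 (two-sided exact permutation p = 0.4, where 0.1 is the smallest that 3 libraries against 3 allow).

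**Figure D2:**
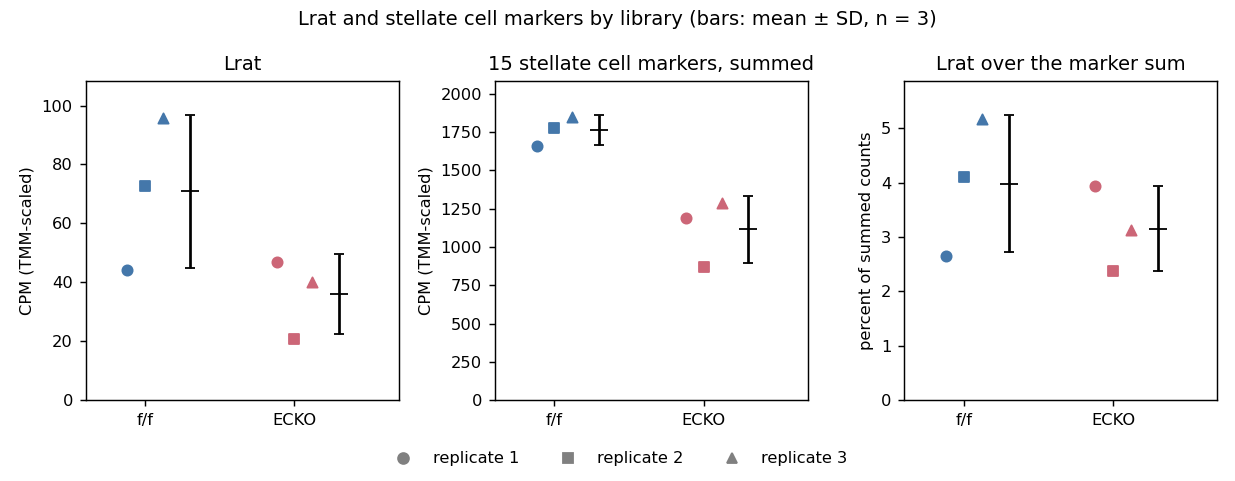
Lrat level in CPM, summed level of 15 stellate cell markers in CPM, and Lrat as a percent of the summed marker counts, for each of 3 f/f libraries and 3 labelled ECKO (symbols, with mean ± SD, n = 3). The marker sum does not overlap between groups (1657 to 1850 against 870 to 1286 CPM), whereas the Lrat level and the Lrat share do.

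The stellate markers themselves fell in 5 of 15 tested genes, with none rising and a median log2 fold change of -0.76. In DESeq2 and under total count scaling 11 fell, and 10 and 9 in limma-trend on log2(FPKM + 0.1) and log2(FPKM + 1). Those settings also called more of all genes lower, at 1038, 1209, 594 and 488 in that order, against 382 in edgeR with TMM. The median log2 fold change of all genes was -0.00026, -0.22, -0.22 and -0.14 in the same order, against 0.01. Tcf21, a transcription factor of stellate cells, was at 37.1, 35.4 and 34.9 CPM in the f/f libraries and at 10.5, 6.10 and 9.63 CPM in the ECKO-labelled libraries (log2 fold change -2.04, SE 0.20, edgeR adjusted p = 0.00853), and Cygb, the cytoglobin gene, at 27.4, 27.2 and 27.3 against 14.4, 12.0 and 14.3 CPM (-1.01, adjusted p = 0.00938). Both were evenly expressed in the f/f libraries, where Lrat spanned 44.0 to 95.7 CPM. Some markers of the list, picked after their values were seen, were lowest in f/f replicate 1 as Lrat was. Among them, Pdgfrb, a PDGF receptor, was at 25.7, 45.6 and 53.6 CPM and Pdgfra at 23.4, 44.0 and 43.5 CPM in f/f replicates 1, 2 and 3. Others were not: Tcf21, Cygb, Colec10 (69.0, 56.1 and 62.6 CPM) and Ngfr (8.48, 5.89 and 6.00 CPM) were highest in f/f replicate 1. Des, Colec11 and Ecm1 were lowest in f/f replicate 2. Dcn, the proteoglycan decorin, averaged 704 CPM in the f/f libraries and 346 CPM in the ECKO-labelled libraries, and Ecm1, also on the list, 301 and 352 CPM. The number of these markers called was 8 when f/f replicate 1 was left out, 2 when f/f replicate 3 was and 1 when replicate 1 of the ECKO-labelled libraries was. No stellate marker was at 0 in a whole group, and the part of stellate RNA in the retinoid values was not tested beyond the Lrat ratio.

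Retinoic acid synthesis was represented by the 3 Aldh1a genes. Aldh1a2 (ENSMUSG00000013584, chr9:71215789-71296243, plus strand) encodes the retinaldehyde dehydrogenase known for making retinoic acid in mesenchyme and mesothelium of the embryo. Aldh1a2 had 52, 71 and 75 counts in the f/f libraries and 0, 3 and 6 counts in the ECKO-labelled libraries, or 2.17, 3.49 and 3.10 CPM against 0, 0.174 and 0.344 CPM. Every f/f library lay above every ECKO-labelled library, and in replicates 1 and 2 of the latter the count was no higher than the 3 that a count of 0 allows. The mean was 2.92 ± 0.675 CPM in the f/f libraries and 0.173 ± 0.172 CPM in the ECKO-labelled libraries, a fall of 15.8-fold as fitted (log2 fold change -3.98, SE 0.64, edgeR adjusted p = 0.0239). Without f/f replicate 3 (adjusted p = 0.0888) or replicates 1, 2 or 3 of the ECKO-labelled libraries (0.0574, 0.0738 and 0.0512) the fall missed the threshold, with log2 fold changes of -4.89 to -3.45 over all 6 single omissions.

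In the same libraries, mesothelial markers fell in 2 of 7 tested genes, with a median log2 fold change of -1.30. In limma-voom 0 were called, with 4 in DESeq2 and under total count scaling. Limma-trend on log2(FPKM + 0.1) called 5 of 8 tested. Of all genes, limma-voom called 191 lower, DESeq2 1038, total count scaling 1209 and limma-trend 594, against 382 in edgeR with TMM. Lrrn4 was at 3.76, 7.41 and 4.30 CPM in the f/f libraries and at 0.931, 1.34 and 0.344 CPM in the ECKO-labelled libraries (-2.56, SE 0.48, edgeR adjusted p = 0.0337). Wt1, the transcription factor WT1 of mesothelium, was at 3.30, 3.09 and 2.57 CPM against 0.200, 0.987 and 0.688 CPM (-2.22, SE 0.47, edgeR adjusted p = 0.0461). Both separated the groups, as Aldh1a2 did, and Muc16, too low to be tested, was at 0 in every ECKO-labelled library. The groups were separated by 4 of the 7 tested markers. Gpm6a, the most abundant of the list, overlapped between them, with means of 36.4 and 31.8 CPM (-0.19, edgeR adjusted p = 0.826). Upk3b (11.1 and 4.73 CPM, edgeR adjusted p = 0.198) and Msln (8.45 and 3.41 CPM, 0.330) also overlapped. Of the single omissions, only those of f/f replicate 1 (2 markers) and of replicate 2 of the ECKO-labelled libraries (1 marker) left any mesothelial marker called, and Wt1 missed the threshold in all 6. The part of mesothelial RNA in the Aldh1a2 values was not tested.

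Aldh1a1 (ENSMUSG00000053279, chr19:20601961-20643462, plus strand), a cytosolic retinaldehyde dehydrogenase of many adult tissues, stood at 62.3, 81.8 and 71.0 CPM in f/f. In the ECKO-labelled libraries Aldh1a1 was at 51.1, 47.9 and 41.8 CPM. All f/f libraries were above all ECKO-labelled libraries, the nearest values being 62.3 and 51.1 CPM, both in replicate 1. The mean fell from 71.7 ± 9.77 to 46.9 ± 4.71 CPM, or 1.53-fold (log2 fold change -0.61, SE 0.13, edgeR adjusted p = 0.0469). The call was close to the threshold: among the 6 single omissions it held without f/f replicate 1 (0.0239) and was lost without each other library (0.0940 to 0.143), and it was also lost in limma-voom (0.0616). Aldh1a7, a neighbouring near-copy of Aldh1a1 whose reads could be shared with it, averaged 9.27 CPM in the f/f libraries and 9.45 CPM in the ECKO-labelled libraries. None of the 12 hepatocyte markers, the summed level of which overlapped between the groups, was called in edgeR with all 6 libraries, while 2 rose in DESeq2 and 1 rose without f/f replicate 1.

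Aldh1a3 (ENSMUSG00000015134, chr7:66390892-66427517, minus strand), the third dehydrogenase of the family, had 31, 34 and 31 counts in f/f against 20, 32 and 19 counts in the ECKO-labelled libraries. In CPM Aldh1a3 was at 1.30, 1.67 and 1.28 against 1.33, 1.86 and 1.09, so that the groups overlapped fully. The log2 fold change was 0.01 (SE 0.33, edgeR adjusted p = 0.983), and under scaling by total count it was -0.22, as was the median of all genes.

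Retinoic acid breakdown was represented by Cyp26a1 and Cyp26b1, the hydroxylases that clear retinoic acid. Cyp26b1 (ENSMUSG00000063415, chr6:84571414-84593908, minus strand) was the most abundant of the 8 genes, with 181, 749 and 854 CPM in the f/f libraries and 1504, 1178 and 1318 CPM in the ECKO-labelled libraries. The f/f libraries all lay below the others, but f/f replicate 1 also lay far below the other f/f libraries. The mean was 595 ± 362 CPM in the f/f libraries and 1334 ± 163 CPM in the ECKO-labelled libraries, a log2 fold change of 1.17 (SE 0.52) that did not pass (edgeR adjusted p = 0.237). Without f/f replicate 1 the difference was smaller, 0.74 on the log2 scale, and its error smaller still (SE 0.14), and it passed (edgeR adjusted p = 0.0271).

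Cyp26a1 (ENSMUSG00000024987, chr19:37697808-37701528, plus strand) was near the lower end of detection, with 20, 25 and 24 counts in the f/f libraries and 24, 22 and 26 counts in the ECKO-labelled libraries. Scaled to CPM, Cyp26a1 was at 0.836, 1.23 and 0.993 in f/f against 1.60, 1.28 and 1.49 in the ECKO-labelled libraries. The groups did not overlap in CPM, with 1.23 and 1.28 CPM as the nearest values, although the raw counts did. The means were 1.02 ± 0.197 and 1.45 ± 0.163 CPM, a log2 fold change of 0.51 (SE 0.32, edgeR adjusted p = 0.361), and 0.26 under scaling by total count.

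The receptor gene was Rarb (ENSMUSG00000017491, chr14:16430842-16575472, minus strand), which encodes retinoic acid receptor beta. Rarb was at 65.6, 89.8 and 96.1 CPM in the f/f libraries and at 74.4, 64.7 and 84.2 CPM in the ECKO-labelled libraries. The groups overlapped, and f/f replicate 1 lay among the ECKO-labelled libraries. The means were 83.8 ± 16.1 and 74.4 ± 9.72 CPM (log2 fold change -0.17, SE 0.16, edgeR adjusted p = 0.558). Rarb overlaps Top2b, which is transcribed from the opposite strand and was at 132 ± 8.85 CPM in the f/f libraries and 126 ± 19.7 CPM in the ECKO-labelled libraries; with no strand setting given, reads in the overlap cannot be assigned with certainty. Lrat overlaps the antisense gene Rbm46os in the same way, which was at 0 in 5 of the 6 libraries.

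Stra6 (ENSMUSG00000032327, chr9:58063788-58153996, plus strand), which encodes a membrane receptor for retinol-binding protein, had 0, 6 and 0 counts in the f/f libraries and 5, 1 and 1 counts in the ECKO-labelled libraries. It was too low to be tested in either group, and a difference was not detectable at this depth.

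Promoter sequence is shown for the members with a match to the DR5 consensus of retinoic acid response elements. In the DR5 type, a pair of nuclear receptor half-sites stand in direct repeat with 5 bases between them. RefSeq promoters on GRCm38.p6, from 250 bases before to 50 bases after each start, were found for 7 of the 8 genes. The DR5 motif was searched by its consensus on both strands and matched in Cyp26a1 and Rarb, against 32 of 32851 promoters of the same length (0.0974%). Neither the DR1 form (0.222% of promoters) nor the DR2 form (0.268%), with spacers of 1 and 2 bases, matched any of the 7, and the other 5 had no DR5 match in this window. In the lines that follow, capitals mark the matched 17 bases; for Cyp26a1 the plus strand of chr19:37697678-37697797 is shown and the motif reads on the opposite strand, 32 to 16 bases before the start, while for Rarb the minus strand of chr14:16575506-16575535 is shown and the motif, 53 to 37 bases before the start, reads on the gene's own strand.
Cyp26a1: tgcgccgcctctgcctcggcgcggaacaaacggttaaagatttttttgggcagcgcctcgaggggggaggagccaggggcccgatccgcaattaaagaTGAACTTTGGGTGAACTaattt
Rarb: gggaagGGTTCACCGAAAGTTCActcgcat
A match describes the letters only. The genes that carry one, Cyp26a1 at 1.02 and 1.45 CPM and Rarb at 83.8 and 74.4 CPM in the respective groups, did not pass the test, and their log2 fold changes had opposite signs (0.51 and -0.17).

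Levels were compared between genes per length, on the authors' FPKM values. In f/f the order was Cyp26b1 (74.5 ± 48.5 FPKM), Aldh1a1 (38.4 ± 8.66), Rarb (30.5 ± 8.66), Lrat (14.8 ± 6.49), Aldh1a2 (1.43 ± 0.453), Cyp26a1 (0.633 ± 0.175), Aldh1a3 (0.284 ± 0.0641) and Stra6 (0.0129 ± 0.0224). Each of the first 3 overlapped the next over the f/f libraries, and in f/f replicate 1 Cyp26b1 (19.0 FPKM) stood below Aldh1a1 (29.0) and Rarb (20.6). The gap between Lrat and Aldh1a2, and the steps from there to Aldh1a3, were free of overlap.

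In the ECKO-labelled libraries the order was Cyp26b1 (135 ± 4.05 FPKM), Rarb (22.6 ± 2.94), Aldh1a1 (21.1 ± 2.20), Lrat (6.07 ± 1.90), Cyp26a1 (0.753 ± 0.0315), Aldh1a3 (0.244 ± 0.0850), Aldh1a2 (0.0730 ± 0.0711) and Stra6 (0.0148 ± 0.0146). Here only Rarb with Aldh1a1, and Aldh1a2 with Stra6, overlapped as neighbours. Aldh1a2 went from rank 5 of the 8 in f/f to rank 7. Cyp26b1 ranked 417 of all 34745 genes by mean FPKM in the f/f libraries and 200 in the ECKO-labelled libraries.

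A feature that most of the 7 tested retinoid genes shared was the position of f/f replicate 1. It was the lowest f/f library in 6 of the 7 tested genes, all but Aldh1a3, and in 41.1% of all genes tested. Its level against the mean of the other f/f libraries, on the log2 scale, was -2.14 for Cyp26b1, -0.93 for Lrat, -0.51 for Aldh1a2, -0.50 for Rarb, -0.29 for Aldh1a1, -0.27 for Cyp26a1 and -0.14 for Aldh1a3, with a median of -0.50 against -0.02 over all genes. The mitochondrial share of f/f replicate 1, 23.5%, was the highest of the f/f libraries and lay within the range of the ECKO-labelled libraries. The same library had the lowest f/f sum of cholangiocyte (214 against 602 and 343 CPM), mesothelial (55.3 against 113 and 78.4 CPM) and B and plasma cell markers (7.90 against 21.4 and 17.8 CPM), and the highest of hepatocyte markers (1785 against 979 and 1156 CPM). Its sums were also the lowest of f/f for stellate (1657 against 1776 and 1850 CPM), Kupffer (16.2 against 28.7 and 24.8 CPM) and T and NK cell markers. They were the highest of f/f for sinusoidal endothelial (22547 against 19267 and 20007 CPM) and dendritic cell markers (259 against 195 and 242 CPM). The part of these in the retinoid values was not tested. Dhrs3, a retinaldehyde reductase picked after its values were seen, was likewise lowest in f/f replicate 1, at 137 CPM against 266 and 255 CPM in the other f/f libraries and 271 to 368 CPM in the ECKO-labelled libraries. Some other genes of the retinoid pathway were highest there among the f/f libraries, such as Aldh8a1 (13.7 against 7.36 and 7.33 CPM) and Aldh1b1 (6.81 against 4.57 and 4.39 CPM). The position of this library was not counted over the pathway genes.

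The genes with the nearest profiles over the 6 libraries were found by the root mean square (RMS) difference of mean-centred log2(CPM + 0.5), among 11900 genes. For Cyp26b1 they were Msi1 (RMS difference 0.171), Strip2 (0.180) and Gpr160 (0.216). Strip2 was at 0.418, 4.52 and 4.51 CPM in the f/f libraries and at 7.12, 7.78 and 7.10 CPM in the ECKO-labelled libraries, and Msi1 at 0.585, 4.03 and 3.81 against 6.12, 6.68 and 6.93 CPM. Each was lowest in f/f replicate 1 and higher in every ECKO-labelled library than in any f/f library. Gpr160, at 0.543, 2.65 and 5.13 CPM against 8.12, 4.93 and 6.25 CPM, was also lowest in f/f replicate 1, but its groups overlapped.

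**Figure D3:**
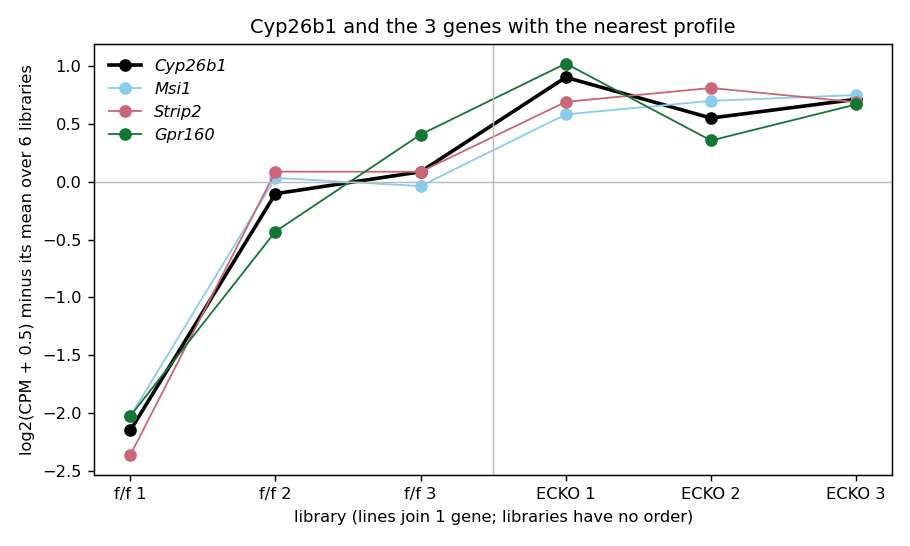
Profiles of Cyp26b1 and of the 3 genes nearest to it, Msi1, Strip2 and Gpr160, as log2(CPM + 0.5) minus each gene's mean over 6 libraries (3 f/f, 3 labelled ECKO); lines join the values of 1 gene and the libraries have no order. All 4 genes are lowest in f/f replicate 1, where Cyp26b1 is at 181 CPM.

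Aldh1a2 lay nearest to Col6a2 (RMS difference 0.200), Col6a1 (0.234) and Ssc5d (0.236); the first 2 encode chains of type VI collagen. Lrat lay nearest to Mastl (0.145), Polq (0.182) and Plcl1 (0.187). The nearest to Aldh1a1 were Stau2 (0.0545), Ift81 (0.0683) and Fdft1 (0.0708), and to Rarb Setd8 (0.0460), Jag1 (0.0752) and Psip1 (0.0763). Cyp26a1 was nearest to Katnal1 (0.0239) and Aldh1a3 to Erlec1 (0.0405), genes that vary as little. With 6 libraries, small distances are met among so many candidates whatever the gene, and they carry no test.

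Of 68 further genes of the retinoid pathway, 50 were tested and 5 were at 0 in every library. Among the 50, 1 rose, 3 fell and 46 did not pass, with a median log2 fold change of -0.07. Over all 13692 genes tested, 1.24% were called higher and 2.79% lower. DESeq2 called 8 of the 50 (4 in each direction) and limma-voom 2, against 1508 and 307 of all 13692 genes. In edgeR the number called was 4 without f/f replicate 1, as with all libraries, and 0 to 2 without any other single library (0 without replicate 1 of the ECKO-labelled libraries, 1 without f/f replicate 2 or 3, 2 without replicate 2 or 3 of the ECKO-labelled libraries). All calls but 1 were among the 8 tested genes of ester synthesis and hydrolysis, where 1 rose and 2 fell.

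Lipe, hormone-sensitive lipase, which also hydrolyses retinyl esters, was at 21.8, 26.9 and 26.0 CPM in the f/f libraries and at 50.5, 57.2 and 48.9 CPM in the ECKO-labelled libraries. Every ECKO-labelled library was above every f/f library, and the mean rose from 24.9 ± 2.71 CPM to 52.2 ± 4.44 CPM (a difference of 1.07 on the log2 scale, SE 0.12, edgeR adjusted p = 0.00938). Without replicate 1 of the ECKO-labelled libraries the adjusted p was 0.0509, and in limma-trend on log2(FPKM + 0.1) and log2(FPKM + 1) it was 0.0561 and 0.0634. Pnpla2, adipose triglyceride lipase, averaged 88.3 and 139 CPM (0.66, edgeR adjusted p = 0.0599), and Plin2, a lipid droplet coat protein, 157 and 187 CPM (adjusted p = 0.175).

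Lpl, lipoprotein lipase, was at 8.02, 22.7 and 19.5 CPM in the f/f libraries and at 4.72, 4.99 and 3.95 CPM in the ECKO-labelled libraries (log2 fold change -1.88, SE 0.38, edgeR adjusted p = 0.0419). Ces1d, a carboxylesterase with retinyl ester hydrolase activity, was at 20.6, 34.8 and 25.8 CPM against 10.4, 13.1 and 13.2 CPM (-1.14, SE 0.21, edgeR adjusted p = 0.0314). Neither overlapped between groups, and both were again lowest in f/f replicate 1 among the f/f libraries. Both kept the call without that library (0.00197 and 0.0123) and lost it without any other (0.0875 to 0.133 for Lpl and 0.0562 to 0.108 for Ces1d). With all 6 libraries, limma-voom called neither (adjusted p = 0.133 for Lpl and 0.0545 for Ces1d), and Lpl was also lost in limma-trend on log2(FPKM + 1) (0.0678).

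No call was made among the carriers and binding proteins, of which 5 of 9 were tested. Stra6l, a relative of Stra6 that also takes up retinol, averaged 3.36 and 1.83 CPM (-0.88, edgeR adjusted p = 0.129). None of the 14 tested oxidoreductases passed (median -0.06); Rdh10, which makes retinaldehyde, averaged 13.6 and 11.3 CPM (-0.27, edgeR adjusted p = 0.257), and Rdh14 had an adjusted p of 0.223. Of the other dehydrogenases, Aldh8a1 averaged 9.45 and 10.6 CPM and Aldh1b1 5.25 and 5.53 CPM, and neither passed (log2 fold changes 0.16 and 0.07).

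The 12 nuclear receptors and cofactors gave no call (median -0.19). Ncoa1, a coactivator, averaged 27.7 and 19.2 CPM (log2 fold change -0.53, edgeR adjusted p = 0.0885) and Rxrb, a retinoid X receptor, 53.8 and 68.7 CPM (0.35, adjusted p = 0.130). Among 8 tested genes commonly induced by retinoic acid, 1 fell and none rose (median -0.10). The one that fell was Rarres2, the chemerin gene, at 28.5, 31.3 and 33.5 CPM in the f/f libraries and at 17.4, 20.5 and 16.7 CPM in the ECKO-labelled libraries (-0.77, SE 0.12, edgeR adjusted p = 0.0241). Its groups did not overlap, and its adjusted p was 0.0581 to 0.106 without f/f replicates 2 or 3 or replicates 1 or 3 of the ECKO-labelled libraries. Tgm2, tissue transglutaminase, averaged 924 and 1275 CPM (edgeR adjusted p = 0.0724) and Hoxa5 26.3 and 35.5 CPM (0.43, adjusted p = 0.0678).

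**Figure D4:**
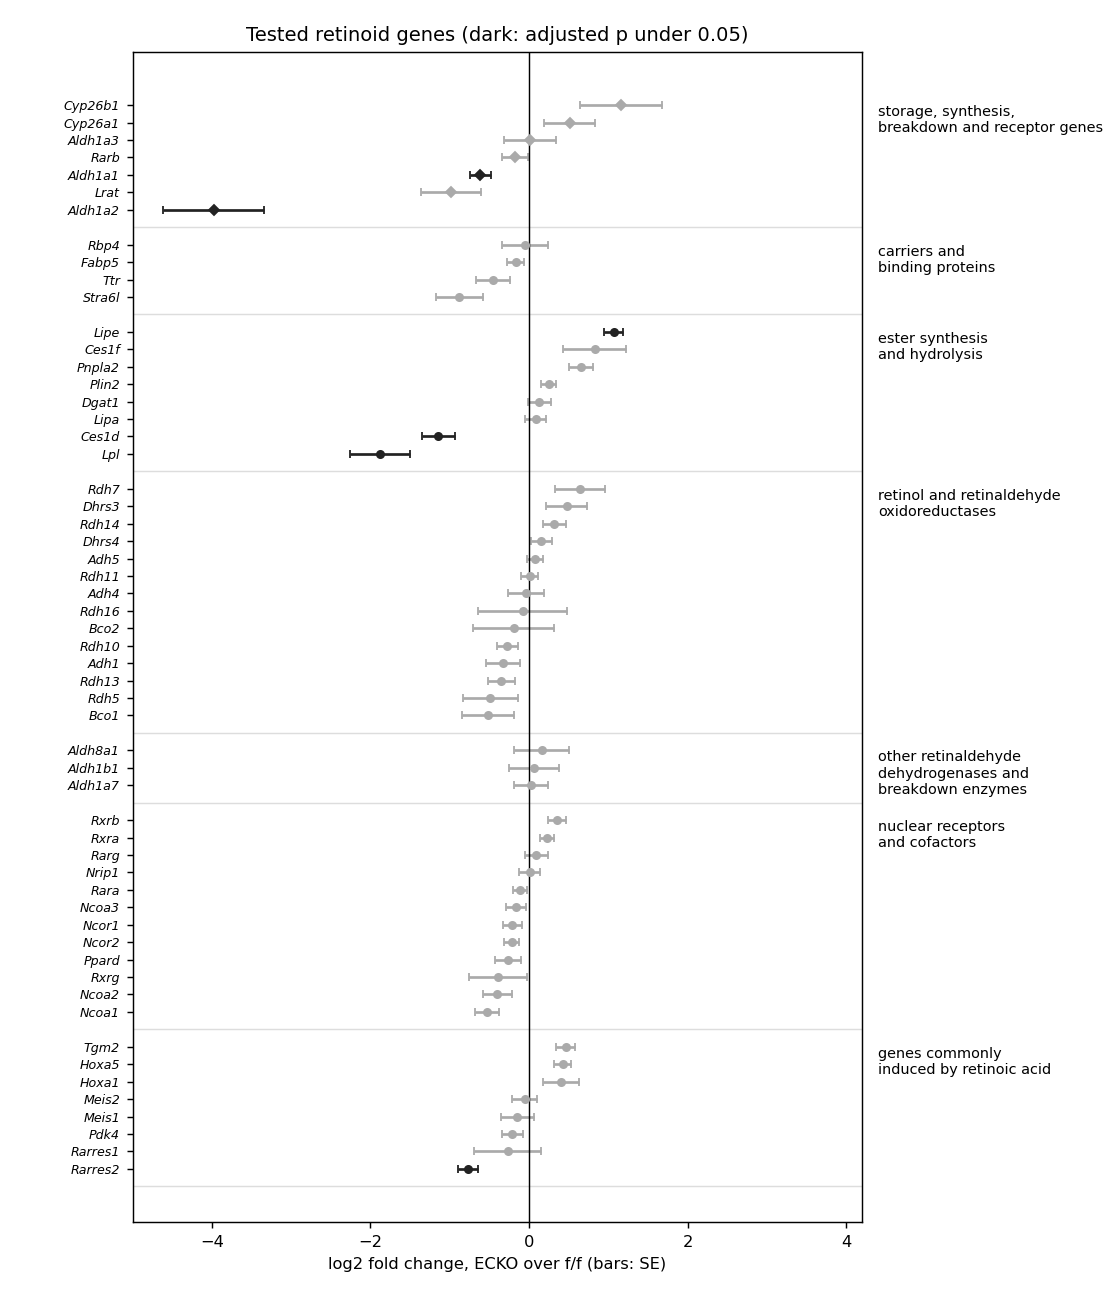
Log2 fold change (ECKO-labelled libraries over f/f, bars: SE) of the 7 tested retinoid genes (diamonds) and of tested genes of 6 pathway lists (circles, 1 of the 50 not plotted); dark symbols have an edgeR adjusted p under 0.05. Aldh1a2 lies lowest at -3.98, and the dark symbols are Aldh1a1, Aldh1a2, Lipe, Ces1d, Lpl and Rarres2.

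Seen beside the markers of other cell types, the log2 fold change of Lrat (-0.98) lay within the range of the stellate markers, -2.04 for Tcf21 to 0.22 for Ecm1. That of Aldh1a2 (-3.98) lay below those of the tested mesothelial markers, of which the lowest was -2.56 for Lrrn4. That of Cyp26b1 (1.17) lay above all markers of sinusoidal endothelium, of which Pecam1, at 0.51, was the one that rose (edgeR adjusted p = 0.0456). The Pecam1 call was lost in all 6 single omissions (edgeR adjusted p = 0.0554 to 0.164). Cholangiocyte markers summed to 214 to 602 CPM in the f/f libraries and 140 to 189 CPM in the ECKO-labelled libraries. They gave no call among 6 tested, but all 6 log2 fold changes were negative (median -1.22) and 5 separated the groups. B and plasma cell markers, at 7.90 to 21.4 and 2.21 to 3.73 CPM, fell in 3 of 5 (median -2.45). The summed markers of monocytes and neutrophils were 12.8 to 23.9 and 1.10 to 5.65 CPM, 1 of 4 fell and Ly6g was at 0 throughout; those of Kupffer cells were 16.2 to 28.7 and 19.1 to 36.5 CPM with no call among 5. Dendritic cell markers summed to 195 to 259 and 212 to 220 CPM, most of it Zbtb46 (213 and 188 CPM), with 1 rise among 4 tested, and T and NK cell markers to 1.17 to 2.55 and 1.60 to 3.59 CPM, with no call for the 1 tested.

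**Figure D5:**
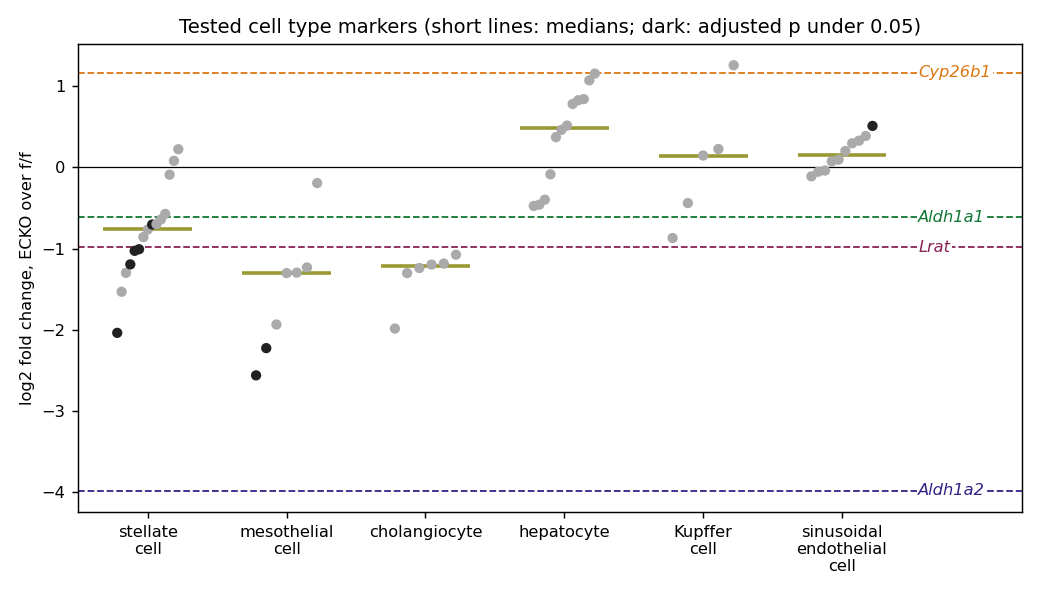
Log2 fold change (ECKO-labelled libraries over f/f) of tested markers of 6 cell types (points; dark: edgeR adjusted p under 0.05; short lines: list medians), with dashed lines for Lrat, Aldh1a1, Aldh1a2 and Cyp26b1. Lrat lies among the stellate markers, Aldh1a2 below every point, and the stellate, mesothelial and cholangiocyte medians are -0.76, -1.30 and -1.22.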

How the data were processed

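Per the file headers, the deposited table gives each gene's raw count in every library. FPKM values by the authors stand beside them and were used for levels between genes. The gene length implied by count, FPKM and library total was compared between f/f replicates 1 and 2. It was the same to a relative difference within 4.61e-06 (genes over 200 counts in both). The other libraries were not compared, and the length was not set against an annotation. HISAT2 2.0.4 and StringTie 1.3.0, and the builds mm10 and GRCm38.p4, are named in the submitters' processing notes with no role; the sources used here give no counter, annotation or strand setting. The count test was edgeR 4.0.16 in R 4.3.3: filterByExpr (minimum count 10, minimum total 15), TMM, robust quasi-likelihood F-test with genotype as the only term, two-sided, Benjamini-Hochberg adjustment over 13692 genes. SE is the absolute log2 fold change over the square root of F. DESeq2 1.42.0 and limma 3.58.1 served as alternatives. The script was tested on simulated data. Overlapping genes were read from the GENCODE annotation of GRCm38, promoters from RefSeq.

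Named were the 8 retinoid genes, in each pathway group all genes past the threshold and the 2 next by p, in each marker list the 2 with the highest mean CPM and any past the threshold among the 2 smallest p, and for each retinoid gene up to 3 nearest profiles among genes averaging at least 1 CPM. Members and lists were chosen with earlier results of these data known. Reln, Colec11 and other genes called in a list are counted but not all named. Muc16, Ly6g, Pdgfra, Pdgfrb, Aldh1a7, Dhrs3 and the overlapping genes are not named by the rule and were picked with their values in view. So were Upk3b, Msln, Colec10, Colec11, Ngfr and Des. Of the genes named by the rule, 1 is not reported here.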

Additional observations from a re-analysis of the deposited data

How the results depend on the processing

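Over 16 alternatives the fold changes of Lrat, Aldh1a1, Aldh1a2, Cyp26a1, Cyp26b1 and Rarb kept their direction. Aldh1a2 was called in every alternative that kept all 6 libraries. Of the 552 genes called with all libraries (382 lower, 170 higher), the number was 1272 under total count scaling (1209 lower, 63 higher), 1508 in DESeq2 (1038 and 470) and 307 in limma-voom (191 lower). With mitochondrial genome genes removed and total count scaling together, 110 were higher; limma-trend on log2(FPKM + 0.1) gave 594 lower and 51 higher, and on log2(FPKM + 1) 38 higher. Total count scaling moved the median log2 fold change of all genes from 0.01 to -0.22, so values under it are to be read against that shift. Leaving out 1 library gave 35 (without replicate 1 of the ECKO-labelled libraries) to 1012 genes (without f/f replicate 1), 21 to 766 lower and 14 to 246 higher. Of the retinoid genes, 1 was called in limma-voom (Aldh1a1 lost), 1 in limma-trend on log2(FPKM + 1) (Aldh1a1 adjusted p = 0.0519), 3 in DESeq2 and 0 to 3 without 1 library. The log2 Lrat ratio to stellate markers was -0.16 with a geometric mean, -0.52 without Dcn and -0.58 to -0.10 without 1 library.

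Aldh1a3 was at -0.22 under total count scaling, -0.062 with mitochondrial genes removed and total count scaling, -0.18 and -0.047 on log2(FPKM + 0.1) and log2(FPKM + 1), and -0.22 to 0.18 without 1 library. Aldh8a1 was at -0.054, -0.072 and -0.042 under total count scaling and on the same log2(FPKM + 0.1) and log2(FPKM + 1) scales, and at its lowest -0.12 without 1 library (its highest was 0.53). Aldh1b1 was at -0.17, -0.19 and -0.13 there, -3.565e-05 with mitochondrial genes removed and total count scaling, and -0.27 to 0.31 without 1 library. Under total count scaling each moved about as far as the median of all genes. That median was -0.062 with mitochondrial genes removed and total count scaling, and -0.22 and -0.14 on log2(FPKM + 0.1) and log2(FPKM + 1). The cause of the other turns was not tested. Low counts limit Aldh1a2, Aldh1a3, Cyp26a1 and Stra6 (at most 75, 34, 26 and 6 per library).

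With the replicate number as a block, 416 genes and 1 retinoid gene were called (Aldh1a1 adjusted p = 0.0622), Lpl and Wt1 missed the threshold (0.0587 and 0.0665), 1 hepatocyte marker rose, and Aldh1a3 was at -0.0095. Deviations of same-numbered libraries correlated at 0.104, 0.164 and -0.0343, and f/f replicate 3 correlated best with replicate 2 of the ECKO-labelled libraries, so the numbers do not show a pairing.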
